A study of Mus musculus with 6 samples.

Results

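The genes described here serve signalling by GABA, the main inhibitory transmitter of the brain. They are 26 genes of 22584 in a table of RNA counts from wild-type (WT) mouse brain. They were chosen by symbol for their roles, with earlier results of these data known. Values over all genes, where given beside them, are background and no test of the list. The list holds 14 subunit genes of the GABA-A receptor, both subunit genes of the GABA-B receptor, 5 genes that make, package, take up or break down GABA, 4 genes of the inhibitory postsynaptic site and the chloride exporter gene Slc12a5. Other subunit and transporter genes were not analysed here.

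RNA had been isolated with the AllPrep column kit, which recovers DNA, RNA and protein from one lysate (3 libraries), or with TRIzol, a phenol and guanidine reagent, as the control (3 libraries). The comparison asks how RNA profiles from the co-extraction kit relate to those from conventional extraction. Library totals ran from 38552252 to 50937858 counts for AllPrep and from 36395330 to 44995120 for TRIzol. The labels name the tissue only as brain and give no age. They do not say if each library was a separate animal, and the p-values therefore speak only to how these libraries vary, which may be technical variation.

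GABA is made from glutamate by the glutamate decarboxylases and loaded into vesicles by a vesicular transporter. It opens GABA-A receptors, chloride channels built of 5 subunits whose mix sets where the receptor sits and how it responds, and it activates GABA-B receptors, which couple to G proteins. Neurons that export chloride are inhibited when these channels open, and scaffold proteins such as gephyrin hold the receptors at synapses. Subunit use differs by brain region, so a count from whole tissue also reflects which regions and cells the piece held. In bulk tissue, fewer cells of a type and less RNA per cell cannot be told apart.

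Of the 26 genes, 2 were higher in AllPrep than in TRIzol libraries, both GABA-A receptor subunit genes: Gabrb1, which encodes the β1 subunit, and Gabre, which encodes the ε subunit. After the filter on low counts 24 of the 26 were tested, and Gabra6 and Gabrr1 were not. The call was a Benjamini-Hochberg adjusted p below 0.05 in the quasi-likelihood test of edgeR, fitted to all 16325 genes that passed the filter. Of those genes 3.8% were called, 2.52% in the higher and 1.28% in the lower direction. In DESeq2, which called 12.8% of all genes, 9 of the 24 were higher. Neither edgeR nor DESeq2 called any of the 24 lower. In limma-voom, which called 3.94% of all genes, 1 was called. With length and GC trends removed, where 1.65% of all genes were called, 0 were. Without each library in turn, 0 were called, where 0.012% to 1.24% of all genes were. At an unadjusted p below 0.05 there were 10, all with positive log2 fold changes, where 25.8% of all genes reached that level in either direction. Log2 fold changes, AllPrep over TRIzol on the scale of TMM-normalized counts, ran from -0.85 for Gabrr2 to 2.00 for Gabre, with a median of 0.22 over the 24 genes against -0.011 over all genes tested. They were positive for 20 genes and negative for 4.

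The methods also differed in markers of other cells. All 8 listed genes of choroid plexus epithelium, the tissue that secretes cerebrospinal fluid, were higher in AllPrep, and they summed to 720.5, 601.9 and 1211 CPM (counts scaled to a library total of 1000000) in AllPrep replicates 1 to 3, against 16.3, 22.0 and 15.6 CPM in TRIzol replicates 1 to 3. The 7 oligodendrocyte markers summed to 3189 to 5618 CPM in AllPrep and 6022 to 7081 CPM in TRIzol, and 0 of 7 passed. Each had every AllPrep library below every TRIzol library, which was so for 20.6% of all genes tested. The 9 striatal markers spread widely, from 425.8 to 1281 CPM in AllPrep and from 188.0 to 830.3 CPM in TRIzol. All 9 had positive log2 fold changes, with a median of 0.96, but each overlapped between the methods and 0 passed. None of 6 microglial, 5 endothelial and 3 tested erythrocyte markers passed. Of 4 tested Purkinje cell markers 1 was higher, Calb1, which many other neurons express. The part of these differences in the values of the GABA genes was not tested.

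**Figure D1:**
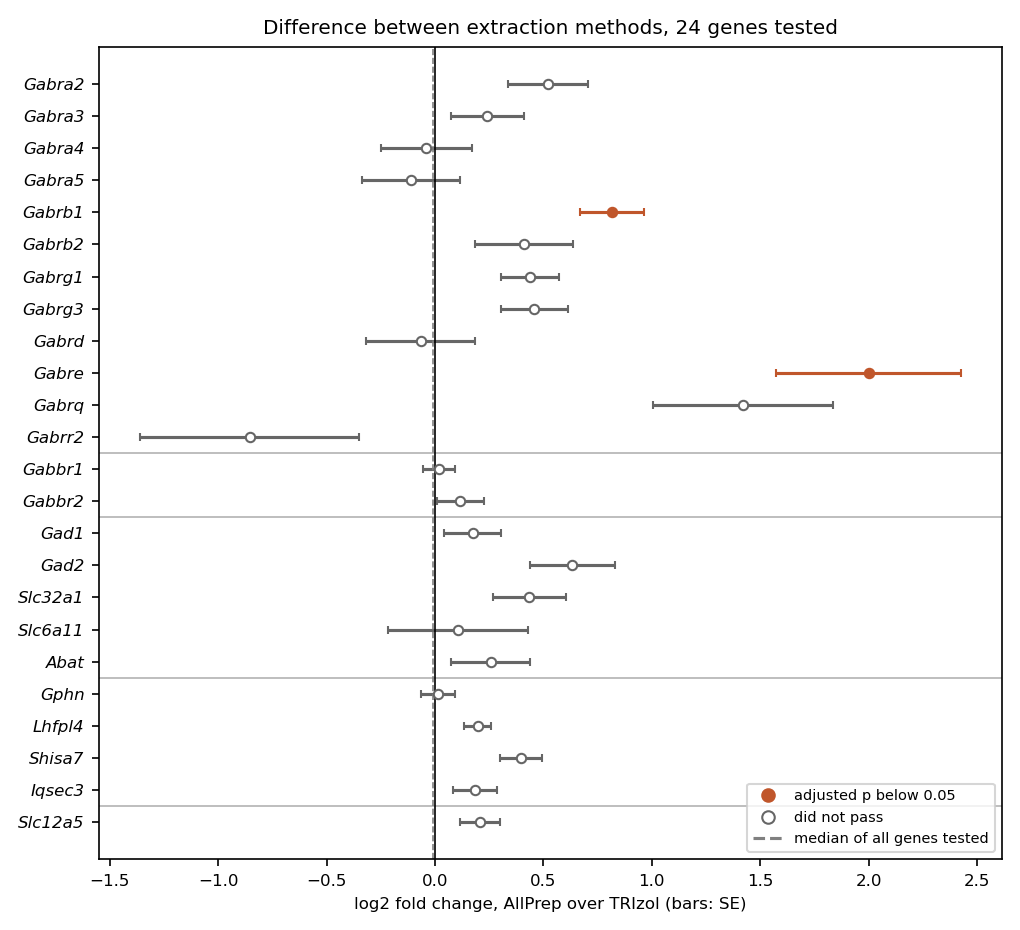
Log2 fold change (horizontal axis, AllPrep over TRIzol, 3 libraries each) of the 24 genes tested, with bars of 1 SE and grey lines between functional groups; filled points passed an adjusted p below 0.05. Gabrb1 (0.82) and Gabre (2.00) are the filled points, and Gabrr2 (-0.85) lies farthest to the left.

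Gabrb1 (ENSMUSG00000029212) had 239.95, 214.7 and 310.9 CPM in AllPrep replicates 1 to 3, against 133.6, 147.8 and 164.1 CPM in TRIzol replicates 1 to 3. Every AllPrep library thus lay above every TRIzol library, which was so for 13.4% of all genes tested. The fold was 1.76 (log2 0.82 with an SE of 0.15, edgeR adjusted p = 0.035). With transcript length and GC trends removed, the log2 fold change was 0.48 and did not pass (adjusted p = 0.082), and without each library in turn adjusted p in edgeR ran from 0.057 to 0.096, so that the call was lost without any 1 of the 6 libraries. AllPrep replicate 3, the highest library for Gabrb1, also had the highest sum of the choroid plexus markers given above, and the part of tissue content in the Gabrb1 result was not tested.

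In the RefSeq annotation of GRCm38.p6 Gabrb1 lies on chromosome 5 beside Gabra4, which encodes the α4 subunit, and near Gabra2 and Gabrg1, which encode the α2 and γ1 subunits. Gabrb1 and Gabra4 start close together on opposite strands. They share 46 exon bases in GENCODE vM21, which is 0.332% of Gabrb1 and 0.756% of Gabra4 exon bases. Whether counting used strand is not given in the sources used here, so reads from the shared stretch cannot be told apart. The neighbours of Gabrb1 did not pass. Gabra4 had 125.9, 161.2 and 125.7 CPM in AllPrep replicates 1 to 3 and 133.3, 109.0 and 192.6 CPM in TRIzol replicates 1 to 3, with a log2 fold change of -0.039 (SE 0.21). The groups overlapped, and TRIzol replicate 3 held the highest value. Gabra2 averaged 79.7 ± 18.7 CPM in AllPrep and 56.9 ± 9.01 CPM in TRIzol (SD, n = 3 each), without overlap (log2 fold change 0.52, adjusted p = 0.13 in edgeR). Gabrg1 averaged 50.9 ± 6.21 CPM in AllPrep and 38.5 ± 6.71 CPM in TRIzol (SD, n = 3 each), also without overlap (adjusted p = 0.10 in edgeR). Within a library, the ratio of Gabrb1 to Gabra4 counts was 1.91, 1.33 and 2.47 in AllPrep replicates 1 to 3, against 1.00, 1.36 and 0.852 in TRIzol replicates 1 to 3, so the ratio overlapped between the methods.

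The promoter windows of this gene pair are shown because annotated starts of both lie together while only Gabrb1 passed the test. Each holds the bases from 250 before to 50 after an annotated start, from RefSeq on GRCm38.p6, written 5′ to 3′ on the gene's own strand, with every CG dinucleotide in capitals. The Gabrb1 window nearest to Gabra4 (chr5:71657671-71657970, plus strand) holds 25 CG dinucleotides, the Gabra4 window (chr5:71658259-71658558, minus strand) holds 12, and 288 bases lie between them. RefSeq has a further Gabrb1 window (chr5:71699682-71699981, plus strand) with 9 CG dinucleotides, and which start was used was not measured.
Gabrb1: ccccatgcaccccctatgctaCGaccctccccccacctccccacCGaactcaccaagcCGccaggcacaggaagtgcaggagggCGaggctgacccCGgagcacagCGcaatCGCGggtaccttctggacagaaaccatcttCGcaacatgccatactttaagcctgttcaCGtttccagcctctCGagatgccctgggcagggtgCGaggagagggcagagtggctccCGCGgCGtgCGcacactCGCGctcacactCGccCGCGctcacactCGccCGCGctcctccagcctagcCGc
Gabra4: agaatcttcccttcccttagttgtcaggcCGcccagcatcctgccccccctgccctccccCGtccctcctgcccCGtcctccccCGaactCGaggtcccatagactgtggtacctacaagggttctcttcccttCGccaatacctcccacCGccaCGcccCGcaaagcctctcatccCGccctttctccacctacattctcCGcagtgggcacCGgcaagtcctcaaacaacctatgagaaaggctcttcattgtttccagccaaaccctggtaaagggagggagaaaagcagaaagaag

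The genes of 3 GABA-A subunits lie near each other on the X chromosome, Gabre, Gabra3 and Gabrq, which encode the ε, α3 and θ subunits, the last pair being direct neighbours. The ε and θ subunits are best known in rodents from the hypothalamus and from monoamine neurons of the brainstem. Gabre (ENSMUSG00000031340) had 6.91, 3.01 and 3.34 CPM in AllPrep replicates 1 to 3, against 0.687, 1.71 and 0.978 CPM in TRIzol replicates 1 to 3. The groups did not overlap, and AllPrep replicate 1 stood highest. The log2 fold change was 2.00 (SE 0.43, edgeR adjusted p = 0.048), on 116 to 304 counts per AllPrep library and 25 to 66 per TRIzol library. This call lay close to the threshold: adjusted p was 0.051 with library size alone, 0.058 in limma-voom and 0.066 with length and GC trends removed, and without each library in turn it ran from 0.072 to 0.12 in edgeR. Leaving out AllPrep replicate 1 gave a log2 fold change of 1.55.

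Gabrq had 22.5, 14.5 and 11.5 CPM in AllPrep replicates 1 to 3, against 4.07, 10.6 and 3.91 CPM in TRIzol replicates 1 to 3. It did not overlap between the methods but did not pass (log2 fold change 1.42 with an SE of 0.41, edgeR adjusted p = 0.089). Without TRIzol replicate 2, the highest TRIzol library for both genes, the log2 fold change of Gabrq was 2.04 (adjusted p = 0.061) and that of Gabre 2.42 (adjusted p = 0.072, both in edgeR). Gabra3 was more abundant and overlapped: it averaged 204.4 ± 11.8 CPM in AllPrep and 177.1 ± 43.7 CPM in TRIzol (SD, n = 3 each), with a log2 fold change of 0.24 (adjusted p = 0.40 in edgeR). Relative to Gabra3 in the same library, Gabre counts stood at a ratio of 0.0153 to 0.0345 in AllPrep and 0.00388 to 0.00775 in TRIzol. The ratio of Gabrq to Gabra3 was 0.0529 to 0.112 in AllPrep and 0.0230 to 0.0478 in TRIzol.

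Most listed markers of hypothalamic neurons also had positive log2 fold changes. The 11 listed markers summed to 34.6 to 58.7 CPM in AllPrep libraries and 10.8 to 12.8 CPM in TRIzol libraries. Of the 10 tested, 4 were higher, among them Sim1 and Trh, and 0 lower, and the median log2 fold change was 2.23. Values were positive for 9 and negative for 1, Pomc (-0.14). Pomc and Crh (0.13) overlapped between the methods. Hcrt, the marker not tested, was at 0 in TRIzol replicates 1 and 3. AllPrep replicate 1 had the highest summed level, as it had for Gabre and Gabrq, and TRIzol replicate 1 had the highest among TRIzol libraries, where Gabre and Gabrq were highest in TRIzol replicate 2. The part of tissue content in the Gabre result was not tested.

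The Gabre (chrX:72274672-72274971, minus strand) and Gabrq (chrX:72824928-72825227, plus strand) promoter windows, from RefSeq on GRCm38.p6 as above, are shown because these genes had the highest log2 fold changes of the list. They hold 24 and 23 CG dinucleotides, in capitals.
Gabre: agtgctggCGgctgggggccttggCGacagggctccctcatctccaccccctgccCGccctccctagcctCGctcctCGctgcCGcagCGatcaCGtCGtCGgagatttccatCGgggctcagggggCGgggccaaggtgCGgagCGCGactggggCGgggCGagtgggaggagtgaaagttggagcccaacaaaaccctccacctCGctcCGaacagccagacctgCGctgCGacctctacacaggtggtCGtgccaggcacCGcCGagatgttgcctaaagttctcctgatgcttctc
Gabrq: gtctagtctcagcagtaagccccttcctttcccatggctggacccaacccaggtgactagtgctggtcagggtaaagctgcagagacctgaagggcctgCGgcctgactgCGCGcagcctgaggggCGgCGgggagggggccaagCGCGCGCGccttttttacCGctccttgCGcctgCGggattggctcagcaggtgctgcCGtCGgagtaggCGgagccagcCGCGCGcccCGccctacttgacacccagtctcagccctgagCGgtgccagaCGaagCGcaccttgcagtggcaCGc

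Both annotated windows of Gabra3 hold 0 CG dinucleotides and the letters TATAAA. Over all 32851 promoter windows of the table the median was 7 CG dinucleotides, 94.6% held at least 1, and 13.6% held TATAAA on either strand. Of the 29 windows found for 24 of the 26 genes, 27 held a CG dinucleotide, 4 held TATAAA and 0 held TGACGTCA, which 1.79% of all windows held on either strand. The median was 17 CG dinucleotides per window. A match of letters is a description of the sequence and not of a bound factor.

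The remaining GABA-A subunit genes did not pass. Gabrb2, the gene of the β2 subunit, had 243.5, 213.8 and 205.2 CPM in AllPrep replicates 1 to 3 and 107.1, 216.5 and 186.9 CPM in TRIzol replicates 1 to 3. TRIzol replicate 1 was low and the groups otherwise overlapped (log2 fold change 0.41, adjusted p = 0.30 in edgeR). Gabra5, for the α5 subunit of hippocampal extrasynaptic receptors, had 59.5, 51.9 and 89.7 CPM in AllPrep replicates 1 to 3 and 72.8, 59.9 and 90.1 CPM in TRIzol replicates 1 to 3, and overlapped (log2 fold change -0.11, SE 0.22). An antisense gene covers 4.98% of its exon bases. Its neighbour on chromosome 7, Gabrg3, for the γ3 subunit, averaged 45.9 ± 7.05 CPM in AllPrep and 34.1 ± 5.98 CPM in TRIzol (SD, n = 3 each), with a log2 fold change of 0.46 (adjusted p = 0.12 in edgeR), or 0.21 with length and GC trends removed.

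Gabrd encodes the δ subunit, which joins α4 in extrasynaptic receptors of the thalamus and dentate gyrus. It had 53.9, 63.7 and 33.0 CPM in AllPrep replicates 1 to 3 and 51.3, 43.0 and 67.0 CPM in TRIzol replicates 1 to 3. TRIzol replicate 3 was the highest of the 6 libraries for Gabrd, as it was for Gabra4 and, by a small margin, Gabra5. For Gabra5 it had 90.1 CPM, against 89.7 CPM in AllPrep replicate 3. In that library 5 thalamic markers summed to 697.8 CPM, against 127.1 to 283.9 CPM in AllPrep libraries and 106.8 to 139.2 CPM in the other TRIzol libraries, and 5 hippocampal markers summed to 303.7 CPM, also the highest. Most of the thalamic sum in TRIzol replicate 3 came from Prkcd (321.1 CPM) and Rora (264.5 CPM), and most of the hippocampal sum from Wfs1 (225.1 CPM). The hippocampal marker Spink8 differed, with every AllPrep library above every TRIzol library. The thalamic and hippocampal lists each had 0 of 5 genes past the threshold. Without TRIzol replicate 3 the log2 fold changes were 0.22 for Gabra4, 0.12 for Gabrd and 0.056 for Gabra5, each of opposite sign to the value with all libraries. The sign also turned without AllPrep replicate 1 (0.032) or 3 (0.019) for Gabra4, without AllPrep replicate 2 for Gabra5 (0.038) and without AllPrep replicate 3 for Gabrd (0.16). The part of tissue content in these values was not tested.

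Gabra6, the α6 subunit gene that marks cerebellar granule cells, had 2, 2 and 0 counts in AllPrep replicates 1 to 3 and 0, 0 and 2 counts in TRIzol replicates 1 to 3. A count of 0 allows up to 3 counts, or 0.0589 CPM in AllPrep replicate 3 and 0.0824 CPM in TRIzol replicate 1, counting error only. No difference was detectable at this depth. Of other genes of cerebellar neurons some were also low: Cbln3 of granule cells stayed at or below 0.7003 CPM in AllPrep and 0.727 CPM in TRIzol, and Pcp2 of Purkinje cells at or below 0.196 CPM in AllPrep and 0.311 CPM in TRIzol. The 8 granule cell markers together summed to 199.0 to 218.7 CPM in AllPrep and 132.0 to 236.4 CPM in TRIzol, most of it from Etv1 and Zic1, which other brain cells also express, and 0 of 8 passed. The 5 Purkinje cell markers summed to 836.7 to 1005 CPM in AllPrep and 639.3 to 925.1 CPM in TRIzol, most of it from Itpr1, which many neurons express, and Car8 had 8.05 to 12.9 CPM in AllPrep and 8.67 to 14.7 CPM in TRIzol.

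The ρ subunit genes Gabrr1 and Gabrr2, best known from the retina, were rare and highest in TRIzol replicate 2. Gabrr2 had 1.25, 1.45 and 0.609 CPM in AllPrep replicates 1 to 3, against 1.02, 3.53 and 1.56 CPM in TRIzol replicates 1 to 3, and did not pass (adjusted p = 0.33 in edgeR). Gabrr1 had 9, 16 and 6 counts in AllPrep replicates 1 to 3 and 4, 46 and 10 counts in TRIzol replicates 1 to 3. The same TRIzol library was highest for Slc6a5, the glycine transporter of glycinergic neurons of the brainstem, with 5.40 CPM against 0.0785 to 0.546 CPM in AllPrep and 0.220 and 0.756 CPM in the other TRIzol libraries. Slc6a5 did not pass (adjusted p = 0.19 in edgeR). Of the other listed glycine genes, Glra1 and Slc6a9 were also highest in that library. Glra2, Glra3 and Glra4 were highest in AllPrep libraries, and Glrb in TRIzol replicate 1. The part of tissue content in these values was not tested.

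**Figure D2:**
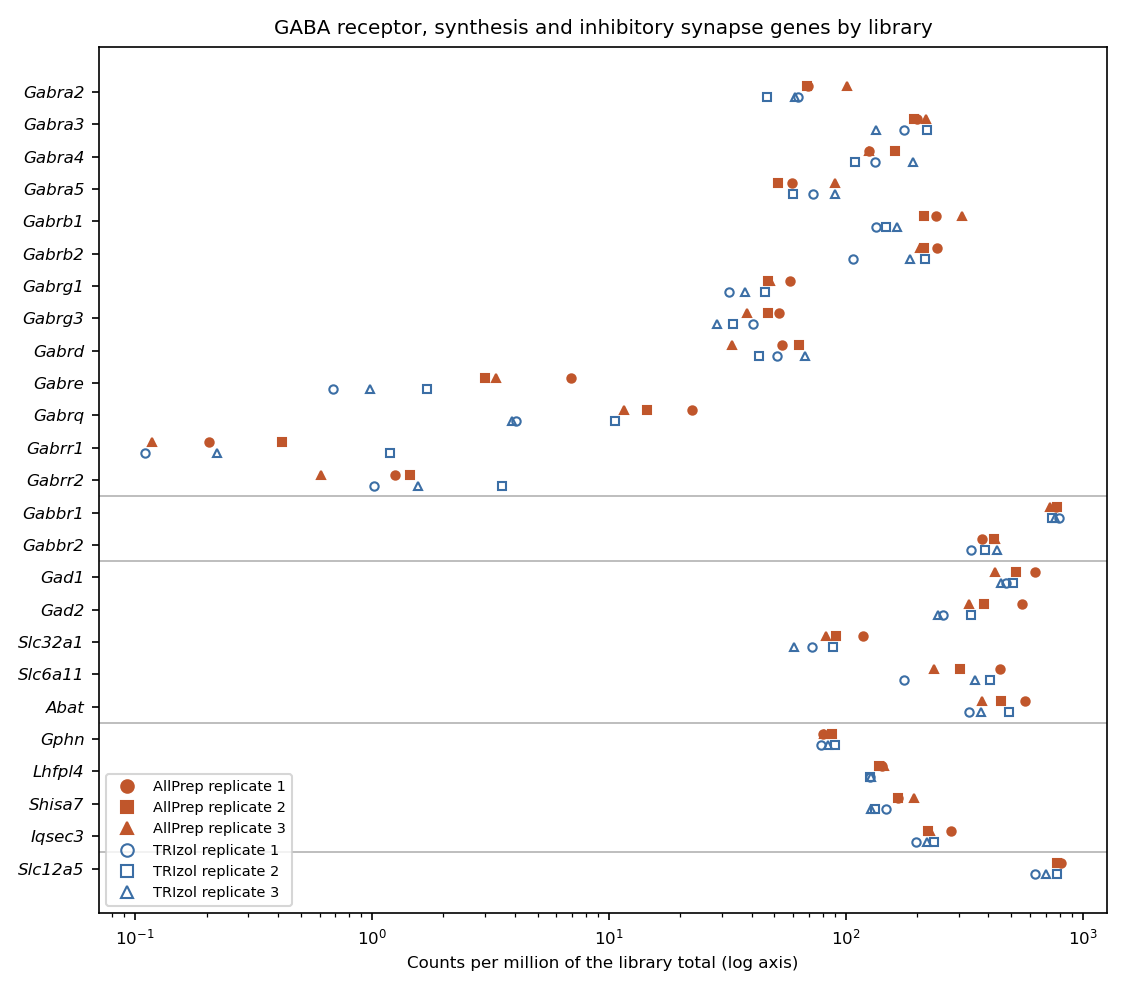
CPM (horizontal log axis) of 25 genes in each of the 6 libraries, with filled symbols for AllPrep and open symbols for TRIzol and symbol shape for the replicate; Gabra6, at 0 in 3 libraries, is left out. AllPrep replicate 1 (filled circles) lies at the top of the range for Gad1, Gad2, Slc32a1, Slc6a11 and Abat.

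The mix of subunits was compared as the share of each gene in the counts of the 14 subunit genes, a measure that does not depend on the scaling between libraries. Gabrb1 took 21.2%, 19.8% and 26.2% in AllPrep replicates 1 to 3, against 16.4%, 15.7% and 16.9% in TRIzol replicates 1 to 3. It was the leading gene of the 14 in AllPrep on average (22.4% ± 3.37), where Gabra3 led in TRIzol (19.7% ± 5.16, SD, n = 3 each). These leads did not hold in every library. In AllPrep replicate 1 Gabrb2 (21.5%) stood above Gabrb1, and in TRIzol replicate 3 Gabra4 (19.9%) stood above Gabra3 (13.8%). Gabre held 0.278% to 0.610% in AllPrep and 0.0841% to 0.182% in TRIzol. For these 2 genes the groups did not overlap (p = 0.1 by a two-sided exact permutation test, and 3 against 3 libraries allow no smaller one). Gabra4 took 12.2% ± 2.35 in AllPrep and 15.9% ± 4.16 in TRIzol, and Gabra5 5.87% ± 1.49 in AllPrep and 8.20% ± 1.59 in TRIzol (SD, n = 3 each), with overlap for both. Of the 14 shares, 12 overlapped between the methods. The 5 sums by role described further on and the 14 shares made 19 exact tests, of which 5 reached the smallest p, and 0.38 was the lowest after Benjamini-Hochberg adjustment over the 19.

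**Figure D3:**
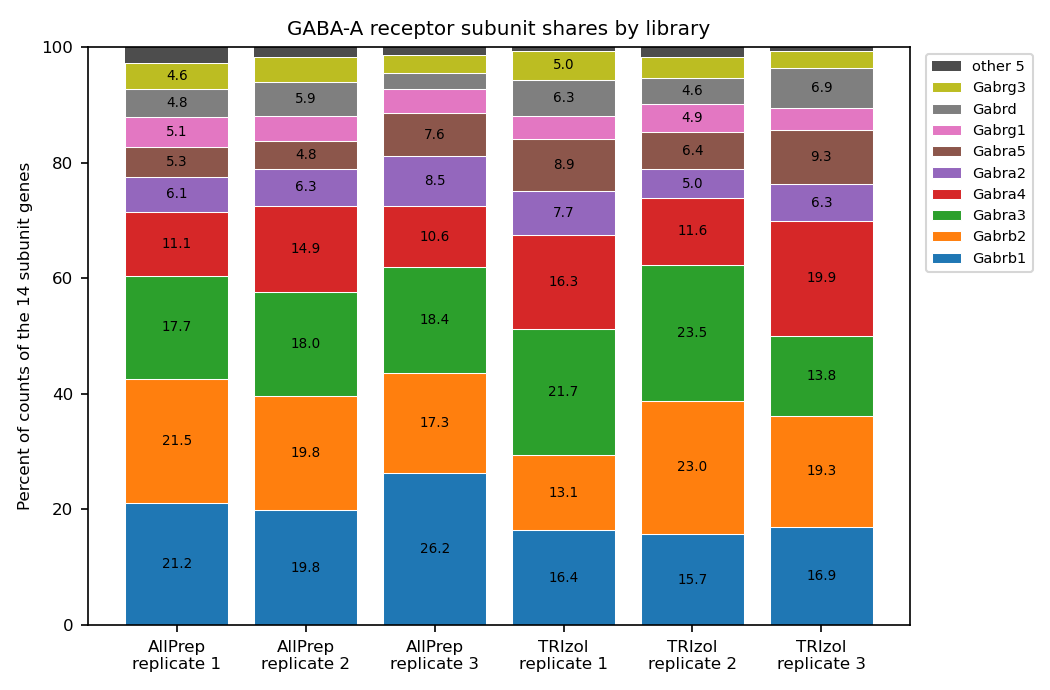
Percent of the counts of the 14 GABA-A subunit genes (vertical axis) held by each gene in each library, AllPrep at the left and TRIzol at the right, with the 9 leading genes in colour and the other 5 in dark grey. The lowest segment, Gabrb1, spans 19.8% to 26.2% in AllPrep and 15.7% to 16.9% in TRIzol, and Gabra4 reaches 19.9% in TRIzol replicate 3.

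Shares of counts also reflect transcript length, so levels between genes were set side by side per kilobase of the longest annotated transcript. On that scale the mean level was 55.8 CPM per kilobase in AllPrep and 48.4 in TRIzol for Gabra3, and 55.4 in AllPrep and 42.7 in TRIzol for Gabrb2. Gabra4 followed, with 33.5 CPM per kilobase in AllPrep and 35.3 in TRIzol. Gabrb1, whose longest transcript has 13737 bases, came to 18.6 CPM per kilobase in AllPrep and 10.8 in TRIzol. It stood close to Gabrd in AllPrep (18.5) and below it in TRIzol (19.9). Per length, Gabrb1 held 7.70% of the 14 genes in AllPrep and 5.18% in TRIzol. Which transcript was used in these cells was not measured, so a level per length is approximate.

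The GABA-B receptor genes Gabbr1 and Gabbr2 encode the subunits that bind GABA and couple to the G protein, and neither passed. Gabbr1 had 775.7, 779.9 and 726.6 CPM in AllPrep replicates 1 to 3 and 797.2, 742.3 and 766.6 CPM in TRIzol replicates 1 to 3. Its log2 fold change was 0.020, with a 95% interval from -0.15 to 0.19 in limma-voom. Gabbr2 averaged 408.8 ± 28.2 CPM in AllPrep and 386.8 ± 47.0 CPM in TRIzol (SD, n = 3 each), with a log2 fold change of 0.12 and a 95% interval from -0.13 to 0.37 in limma-voom. Both intervals span 0. Per kilobase Gabbr1 stood at 145.0 CPM in AllPrep and 146.5 in TRIzol, above every GABA-A subunit gene analysed here.

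For GABA synthesis and transport, 0 of 5 genes passed, and all 5 had positive log2 fold changes, with a median of 0.26. Gad1 and Gad2 encode the glutamate decarboxylases GAD67 and GAD65. GAD67 makes most of the basal GABA supply, and GAD65 sits mainly at nerve endings. Gad1 had 628.8, 525.5 and 427.6 CPM in AllPrep replicates 1 to 3 and 473.8, 507.3 and 453.6 CPM in TRIzol replicates 1 to 3, and AllPrep held both the highest and the lowest library (log2 fold change 0.17, adjusted p = 0.44 in edgeR). Gad2 had 557.3, 385.2 and 333.0 CPM in AllPrep replicates 1 to 3, against 258.3, 337.7 and 244.8 CPM in TRIzol replicates 1 to 3. Its log2 fold change was 0.63 (SE 0.20, edgeR adjusted p = 0.10), and TRIzol replicate 2 lay above AllPrep replicate 3. Without AllPrep replicate 1 the log2 fold change of Gad2 was 0.41 (adjusted p = 0.21 in edgeR).

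The ratio of Gad2 to Gad1 within a library, which no scaling changes, was 0.886, 0.733 and 0.779 in AllPrep replicates 1 to 3, against 0.545, 0.666 and 0.540 in TRIzol replicates 1 to 3. The ratio did not overlap between the methods. No test was run on it, and 3 against 3 libraries allow no exact permutation p below 0.1. Of the other ratios read, those of Gabre and of Gabrq to Gabra3 also did not overlap. The rest overlapped, among them Gabbr2 to Gabbr1 and Gabrb1 to Gabrb2. Slc32a1, the vesicular GABA transporter, had 118.3, 90.7 and 82.5 CPM in AllPrep replicates 1 to 3 and 72.2, 88.2 and 60.2 CPM in TRIzol replicates 1 to 3, with a log2 fold change of 0.44 (adjusted p = 0.16 in edgeR). An antisense gene shares 24.9% of its exon bases, and reads from it could not be separated. The groups overlapped, as TRIzol replicate 2 lay above AllPrep replicate 3. Its ratio to Gad1 overlapped, at 0.173 to 0.193 in AllPrep and 0.133 to 0.174 in TRIzol.

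The genes of uptake and breakdown varied widely within a method. Slc6a11, the GABA transporter GAT-3 of astrocytes, had 446.1, 302.3 and 235.8 CPM in AllPrep replicates 1 to 3 and 175.8, 407.2 and 352.7 CPM in TRIzol replicates 1 to 3. AllPrep held the highest and TRIzol the lowest library, the others were mixed, and the log2 fold change was 0.11 (SE 0.32). The 7 astrocyte markers summed to 4108 to 4485 CPM in AllPrep and 3318 to 3891 CPM in TRIzol, the lowest sum being in TRIzol replicate 1, and 1 of the 7, Slc1a3, was higher. Most of the sum came from Slc1a2 (mean 3046 CPM in AllPrep and 2389 CPM in TRIzol), which did not pass. Log2 fold changes of the 7 were positive for 4 and negative for 3, with a median of 0.028. Abat, the GABA transaminase that breaks GABA down, averaged 465.3 ± 98.8 CPM in AllPrep and 398.4 ± 82.3 CPM in TRIzol (SD, n = 3 each) and overlapped (adjusted p = 0.41 in edgeR).

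**Figure D4:**
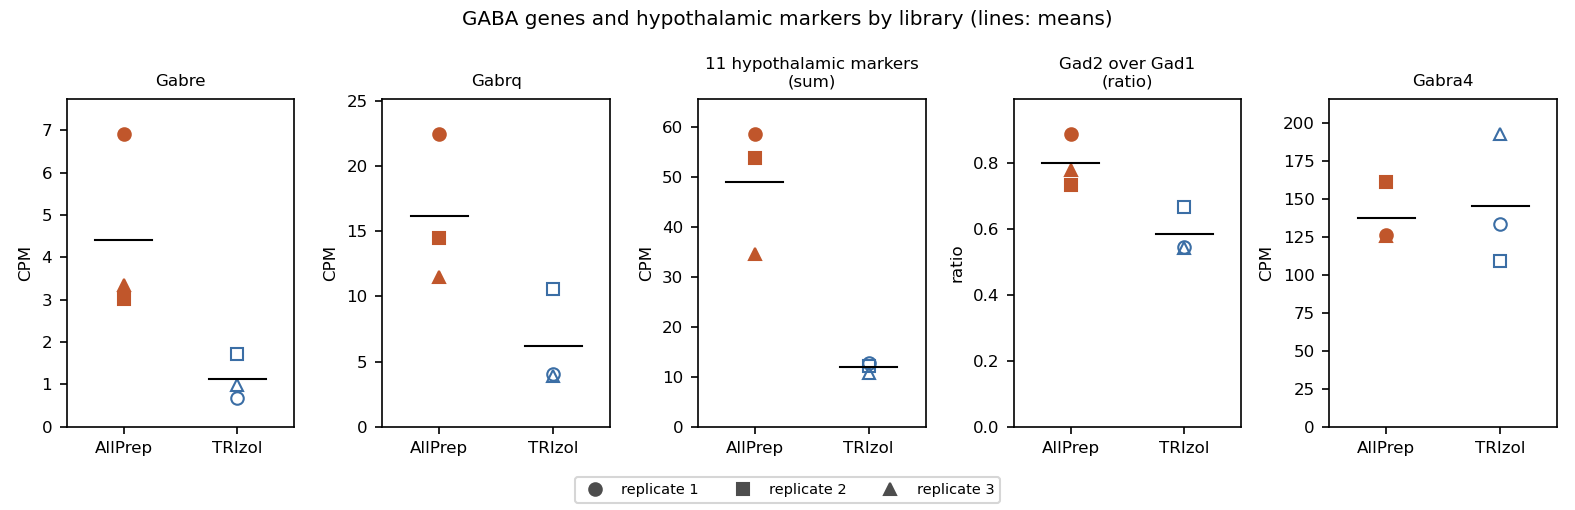
Values by library in 5 panels (vertical axes from 0: CPM, or a ratio for Gad2 over Gad1), AllPrep at the left and TRIzol at the right of each panel, with symbol shape for the replicate and lines at the means. Gabre, Gabrq, the sum of 11 hypothalamic markers (34.6 to 58.7 CPM in AllPrep, 10.8 to 12.8 CPM in TRIzol) and the Gad2 to Gad1 ratio do not overlap, while Gabra4 does, with TRIzol replicate 3 highest at 192.6 CPM.

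At the inhibitory postsynaptic site 0 of 4 genes passed. Shisa7, which encodes an auxiliary subunit of GABA-A receptors, had 165.7, 166.0 and 193.2 CPM in AllPrep replicates 1 to 3, against 147.7, 133.2 and 128.3 CPM in TRIzol replicates 1 to 3. The groups did not overlap, with a log2 fold change of 0.39 (SE 0.097, edgeR adjusted p = 0.063), or 0.26 with length and GC trends removed. Lhfpl4, which links receptors to neuroligin 2, had a narrow range within each method, with 142.4, 138.5 and 145.3 CPM in AllPrep replicates 1 to 3, against 126.8, 126.2 and 127.7 CPM in TRIzol replicates 1 to 3. The groups did not overlap, but the log2 fold change of 0.20 did not pass (adjusted p = 0.11 in edgeR). Gphn, for the scaffold gephyrin, averaged 82.9 ± 4.04 CPM in AllPrep and 84.2 ± 5.45 CPM in TRIzol (SD, n = 3 each), with a 95% interval of the log2 fold change from -0.17 to 0.20 in limma-voom. Iqsec3, a gephyrin-binding exchange factor for ARF proteins, averaged 242.2 ± 30.3 CPM in AllPrep and 218.2 ± 19.3 CPM in TRIzol (SD, n = 3 each) and overlapped.

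Slc12a5 encodes KCC2, the exporter that keeps chloride low in mature neurons. It had 812.1, 782.2 and 783.7 CPM in AllPrep replicates 1 to 3, against 626.9, 781.6 and 702.3 CPM in TRIzol replicates 1 to 3. All AllPrep libraries lay above all TRIzol libraries, though replicates 2 of the methods lay within 1 CPM of each other, and the gene did not pass (log2 fold change 0.21, adjusted p = 0.20 in edgeR, and 0.075 on the log2 scale with length and GC trends removed). In all, 8 of the 24 tested genes had every AllPrep library above every TRIzol library and 0 the reverse, where 13.4% of all genes had the first pattern and 20.6% the second. The 8 were Gabra2, Gabrb1, Gabrg1, Gabre, Gabrq, Lhfpl4, Shisa7 and Slc12a5.

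Summed by role, the 14 GABA-A subunit genes came to 1134 ± 51.7 CPM in AllPrep and 908.1 ± 80.6 CPM in TRIzol (SD, n = 3 each), a ratio of 1.25 without overlap. Gabrb1 is among them, with 255.2 CPM in AllPrep and 148.5 CPM in TRIzol. The 4 scaffold genes summed to 642.2 ± 25.1 CPM in AllPrep and 565.6 ± 17.8 CPM in TRIzol (SD, n = 3 each), also without overlap. Both had an exact permutation p of 0.1, two-sided, the smallest possible here, as had Slc12a5 alone. The GABA-B genes summed to 1169.6 ± 27.9 CPM in AllPrep and 1155 ± 38.9 CPM in TRIzol (SD, n = 3 each, exact permutation p = 0.5). The 5 synthesis and transport genes summed to 1843 ± 441 CPM in AllPrep and 1542 ± 264 CPM in TRIzol (exact permutation p = 0.5, SD, n = 3 each). The ratio of the GABA-A subunit sum to the sum of Gad1 and Gad2 was 0.956 to 1.56 in AllPrep and 1.11 to 1.39 in TRIzol, and overlapped.

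Of other genes of the pathway, 3 of 50 tested in 4 lists were called, where 3.8% of all genes were called, 2.52% as higher and 1.28% as lower. Of 20 further inhibitory synapse genes 1 was higher and 0 lower, with a median log2 fold change of 0.22. The higher one was Hap1, which encodes huntingtin-associated protein 1, a partner of receptor transport, with 351.6 ± 101.3 CPM in AllPrep and 162.6 ± 18.7 CPM in TRIzol (SD, n = 3 each, adjusted p = 0.034 in edgeR). The abundant Gabarapl1, of the family of GABA-A receptor-associated proteins, averaged 311.5 CPM in AllPrep and 382.4 CPM in TRIzol (edgeR adjusted p = 0.17).

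Of 11 further genes of GABA metabolism and transport 1 was higher and 0 lower (median log2 fold change 0.12). It was Slc6a6, the taurine transporter, with 161.3 ± 5.41 CPM in AllPrep and 126.1 ± 8.64 CPM in TRIzol (SD, n = 3 each, adjusted p = 0.039 in edgeR). Glul, the glutamine synthetase of astrocytes, averaged 1511 CPM in AllPrep and 1803 CPM in TRIzol (edgeR adjusted p = 0.17). Among 7 glycine receptor and transport genes 0 passed (median 0.056), with Glrb, the β subunit of the glycine receptor, at -0.29 and Slc6a9, a glycine transporter, at -0.17. Of 12 chloride balance genes 0 were higher and 1 lower (median 0.067): Car7, a neuronal carbonic anhydrase, fell to 11.03 ± 2.11 CPM in AllPrep, against 18.7 ± 1.41 CPM in TRIzol (SD, n = 3 each, log2 fold change -0.72, adjusted p = 0.046 in edgeR). The abundant Wnk1, a kinase that controls chloride transporters, and Clcn3, a chloride/proton exchanger, did not pass, at log2 fold changes of 0.35 and 0.14, which were 0.019 and -0.026 with length and GC trends removed. Without 1 library adjusted p in edgeR ran from 0.036 to 0.096 for Hap1, which passed only without AllPrep replicate 2, from 0.061 to 0.12 for Slc6a6 and from 0.054 to 0.13 for Car7, which passed in none of these fits. With length and GC trends removed, Hap1 passed (adjusted p = 0.046 in edgeR), while Slc6a6 (log2 fold change 0.26, adjusted p = 0.090) and Car7 (adjusted p = 0.072) did not. Hap1, highest in AllPrep replicate 3 (451.5 CPM), is also abundant in the hypothalamus. The hypothalamic markers summed to 34.6 CPM in that library, the lowest among AllPrep libraries. The part of tissue content in the Hap1 result was not tested.

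Markers of GABAergic neurons were also read, on a list apart from the striatal one given above. The 12 listed genes of GABAergic neurons summed to 332.2 to 391.8 CPM in AllPrep and 296.4 to 334.0 CPM in TRIzol, with overlap. Of the 12, 1 was higher, Dlx6os1, and 0 lower, with a median log2 fold change of 0.57. Log2 fold changes were positive for 10 and negative for 2, Pvalb (-0.98, adjusted p = 0.084 in edgeR) and Vip (-0.16). Pvalb averaged 28.2 CPM in AllPrep and 56.7 CPM in TRIzol. The 7 genes of glutamatergic neurons had a median of -0.25, and 0 passed. The part of cell content in the values of the synthesis genes was not tested.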

How the data were processed

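RNA of wild-type mouse brain was measured in 3 AllPrep and 3 TRIzol libraries. Per the labels' protocols, libraries were amplified by T7 in vitro transcription and sequenced as paired reads on a NovaSeq instrument. The authors deposited whole-number counts per gene, not normalized. Per the submitters' processing notes, reads were handled with cutadapt, FastQC 0.11.9, featureCounts, STAR 2.7.9a and limma 3.60.6 on GRCm39. Their settings are not given here by any source. Of 22692 rows, 108 repeated an Ensembl ID with identical counts and were removed. Replicates of a method differed by more than counting error (14.3 to 47.1 chi-square units per degree of freedom).

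The test was that of edgeR 4.0.16, run in R 4.3.3 (TMM after filterByExpr by group, quasi-likelihood F-test, Benjamini-Hochberg adjustment over all genes tested, two-sided), without a block for the replicate number. The SE is the log2 fold change divided by the square root of F. Printed CPM are counts over the column total. Intervals came from limma-voom (limma 3.58.1). Sums and shares were compared by exact permutation tests (scipy 1.17.1). Alternatives were DESeq2 1.42.0, its size factors, library size alone, other filters, limma-voom, halved counts (read pairs may count 2 times, since 64.2% to 71.0% of counts from 1 to 20 were even), length and GC trends removed (mgcv 1.9.3, longest transcript of GENCODE vM21), the block, and each library left out. The edgeR step was tested on simulated data. It recovered 18.6% of the genes changed by a fold of 1.5, 59.7% at 2 and 91.9% at 4. Of its calls, 7.56% fell on unchanged genes. Member genes and lists were chosen with earlier results of these data known. Named are all 26 genes and, in the other pathway lists, the genes past the threshold and the 2 most abundant; results for 2 genes that this rule names are not reported here. Marker lists were fixed together with them; Nov and Hbb-bs were not matched. Floors cover counting error only.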

Additional observations from a re-analysis of the deposited data

How the results depend on the processing

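The number of genes past the threshold was 621 and stayed within 1.5 times that under DESeq2 size factors, library size alone, both filters, limma-voom and halved counts. It was 2095 in DESeq2, 269 with length and GC trends removed, 236 with the replicate block, and 2 to 205 without 1 library. With library size alone the split was 343 higher and 305 lower, against 412 higher and 209 lower under TMM. Of the 26 genes described, 2 passed. That count was 9 in DESeq2, all higher, where 12.8% of all genes passed (Gabrb1, Gabre, Gabra2, Gabrg1, Gabrg3, Gabrq, Gad2, Lhfpl4 and Shisa7), 1 with library size alone, 1 in limma-voom, 1 with the replicate block (Gabrb1 each time), 0 with length and GC trends removed, and 0 to 0 without each library in turn. The causes were not tested, except that leave-one-out fits have fewer samples.

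Same-numbered libraries' deviations from their group means correlated at -0.048, 0.006 and 0.16, and AllPrep replicate 1 correlated most with TRIzol replicate 2 (0.198). No label says what the replicate number marks. With 3 libraries per method these correlations cannot show whether the numbers pair the samples. The block ended the call of Gabre (adjusted p = 0.088 in edgeR) and those of Hap1, Slc6a6 and Car7. Paired sign flips on sums and shares cannot give p below 0.25.

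Values near 0 changed sign. On the log2 scale Gabbr1 was -0.015 with library size alone and -0.068 with trends removed, Gphn -0.022 with library size alone, and Iqsec3 and Clcn3 -0.038 and -0.026 with trends removed. Without 1 library, ranges were -0.22 to 0.22 for Gabra4, -0.39 to 0.056 for Gabra5, -0.28 to 0.16 for Gabrd, -0.012 to 0.052 for Gabbr1, -0.18 to 0.33 for Slc6a11, -0.035 to 0.054 for Gphn, -0.32 to 0.018 for Slc6a9, and -0.0025 to 0.046 for the GABA-B sum. Differences in share, AllPrep minus TRIzol in percentage points, ranged from -0.104 to 1.36 for Gabra2, -4.56 to 0.296 for Gabra3, -1.66 to 3.31 for Gabrb2, -0.0475 to 0.578 for Gabrg1, -0.19 to 0.811 for Gabrg3 and -0.0529 to 0.00391 for Gabrr1. Depth limits Gabra6 and Gabrr1, which stayed below the filter.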

Other observations

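Single libraries stood out across the GABA genes. AllPrep replicate 1 held the highest CPM of the 6 libraries for 12 of the 24 tested genes, where it did so for 14.4% of all genes tested. Among the 12 were all 5 genes of synthesis, packaging, uptake and breakdown (Gad1, Gad2, Slc32a1, Slc6a11 and Abat), with Gabrb2, Gabrg1, Gabrg3, Gabre, Gabrq, Iqsec3 and Slc12a5. TRIzol replicate 1 held the lowest CPM for 10 of the 24, where it did so for 21.8% of all genes, among them Gabrb1, Gabrb2, Slc6a11, Abat and Slc12a5. AllPrep replicate 3 was highest for Gabra2, Gabrb1, Lhfpl4 and Shisa7 and lowest for Gad1, Gabrd, Gabrr2 and Gabbr1.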
